A study of Drosophila melanogaster with 2 samples.

Results

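Intergenic summits away from start sites were the sites of CG1024-eGFP occupancy that lay between genes. A summit is the position of highest occupancy inside a peak. A summit was included when it lay over 500 bp from every annotated transcription start site (TSS) and inside no annotated gene, with transposable element records not counted as genes. Of 3397 summits that could be placed on 7 chromosomes, 527 met this rule, which is 15.5% (95% Wilson interval 14.3 to 16.8). Another 4 peaks on unplaced scaffolds were not classified. The other summits were 1659 promoter summits, within 500 bp of a TSS, and 1211 summits inside a gene but away from start sites.

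The sites were mapped by chromatin immunoprecipitation with sequencing (ChIP-seq) in whole Drosophila melanogaster embryos collected from 0 to 24 hours of age. The embryos came from a transgenic strain that expresses CG1024 fused to enhanced green fluorescent protein (eGFP), and the chromatin was sonicated to 200 to 800 bp. The labels describe an antibody against GFP in one field and name CG1024 in the antibody field, so capture of unfused CG1024 cannot be judged from them. There was 1 group of 2 biological replicates, without a second condition or genotype to compare. The labels do not say which promoter drove the fusion or whether unfused CG1024 was also present. Whole embryos of mixed age pool all tissues, so a site used strongly in few cells and a site used weakly in many cannot be told apart. The values are peak signals from the authors' peak caller, on genome build dm6, with no stated scale. Read counts are not part of these lists, and the depth of each peak is therefore unknown.

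RefSeq lists the CG1024 product as an uncharacterized protein. Chromatin-bound proteins found between genes can sit at enhancers, which raise transcription of a gene at a distance, at insulators, which limit such contacts, at the start sites of transcripts that are not annotated, or in repeats. In flies, insulators are bound by proteins such as CTCF and BEAF-32, and the DNA replication-related element (DRE) is a motif of many housekeeping promoters. Peak lists alone give position and strength and do not tell these kinds of element apart. All shares and densities below count summits, which come from the same pair of libraries and are not replicates. Differences between classes of summit are therefore described with counting intervals and were not tested.

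Sequence windows of 201 bases centred on the summit show what stood at some of the strong sites. The next 6 windows are named by the gene of the nearest TSS and are read from dm6. They hold the strongest site printed here, a pair of strong sites with the 5-base sequence CACTG, and strong sites with 3 motifs of known chromatin proteins. The windows were picked in part by motif and do not show how common a motif was at strong sites. CACTG stood within 100 bp of 6 of the 15 strongest sites. The DRE was also in the windows, not printed here, of the stronger sites near snoRNA:CD-24 (signal 567) and mRpS5 (521), which hold no CACTG. Capitals mark CACTG on either strand in the windows of lncRNA:CR45643 and CG31668, the CTCF core in that of jp, the DRE in that of ey and the M1BP motif in that of slp2. The window of CG41128 holds no CACTG and has no capitals. CACTG on either strand is also present, not marked as such, 3 times in the slp2 window and 1 time in that of ey. Both M1BP matches of the slp2 window share bases with a CACTG.
CG41128, chr3R:3789711-3789911, plus strand: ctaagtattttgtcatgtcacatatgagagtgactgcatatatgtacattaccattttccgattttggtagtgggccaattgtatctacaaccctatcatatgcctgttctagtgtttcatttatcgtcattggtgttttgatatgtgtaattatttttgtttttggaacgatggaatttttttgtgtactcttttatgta
lncRNA:CR45643, chr3R:16222398-16222598, plus strand: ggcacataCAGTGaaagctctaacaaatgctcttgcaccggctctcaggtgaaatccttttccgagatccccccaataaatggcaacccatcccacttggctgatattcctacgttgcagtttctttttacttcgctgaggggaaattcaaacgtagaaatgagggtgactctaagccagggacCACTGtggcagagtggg
CG31668, chr2L:2202309-2202509, plus strand: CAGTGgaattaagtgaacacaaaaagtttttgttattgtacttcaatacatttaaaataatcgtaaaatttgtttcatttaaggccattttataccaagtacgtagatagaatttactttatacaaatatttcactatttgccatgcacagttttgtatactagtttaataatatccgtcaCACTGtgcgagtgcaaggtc
jp, chr2L:9567410-9567610, plus strand: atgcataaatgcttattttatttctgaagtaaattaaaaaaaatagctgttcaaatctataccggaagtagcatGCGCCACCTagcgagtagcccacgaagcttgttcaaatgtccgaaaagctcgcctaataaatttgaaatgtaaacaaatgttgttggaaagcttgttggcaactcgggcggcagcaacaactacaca
ey, chr4:696805-697005, plus strand: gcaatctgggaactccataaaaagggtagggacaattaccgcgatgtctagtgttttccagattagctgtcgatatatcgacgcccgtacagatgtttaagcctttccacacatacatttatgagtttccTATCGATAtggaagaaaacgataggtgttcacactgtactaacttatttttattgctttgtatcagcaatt
slp2, chr2L:3832432-3832632, plus strand: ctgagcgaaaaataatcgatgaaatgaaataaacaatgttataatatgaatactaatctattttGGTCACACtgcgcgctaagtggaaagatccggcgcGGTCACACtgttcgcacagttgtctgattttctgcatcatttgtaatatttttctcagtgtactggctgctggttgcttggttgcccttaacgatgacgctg

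The printed sites were strong in both replicates. At the CG41128 site the pooled signal was 936, with 391 in replicate 1 and 545 in replicate 2, and the summit lay 39448 bp from the nearest TSS. At the lncRNA:CR45643 site the pooled signal was 641, with 338 and 305. The CG31668 site had 558, with 287 and 287. At the site upstream of jp, which encodes junctophilin, a protein of membrane junctions, the pooled signal was 346, with 215 and 128. The site upstream of ey, the Pax6-type regulator of eye development, had 329, with 159 and 181. At the site upstream of slp2, a forkhead transcription factor of embryonic segmentation, the signal was 348, with 180 and 173. All 6 were above the upper quartile of intergenic signal, 130. The 3 sites shown for a motif were picked for their strength and say nothing of the usual strength of sites with that motif.

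Intergenic summits became sparser with distance from start sites. Their distance to the nearest TSS ranged from 508 to 426667 bp, with a median of 3153 bp and quartiles of 1308 and 6497 bp. Density was set against the available sequence, that is all sequenced bases that a summit meeting the rule could have occupied, 38.6 Mb in all. Between 500 and 1000 bp from a TSS there were 93 summits, or 32.4 per Mb (95% exact Poisson interval 26.1 to 39.7). The density was 23.2 per Mb from there to 2000 bp, 16.4 from 2000 to 5000 bp and 13.2 from 5000 to 10000 bp. Beyond 10000 bp it was 5.43 per Mb (4.30 to 6.76), from 79 summits on 37.7% of the available sequence. Signal did not follow this order, with median values of 84.0, 92.5, 82.4, 79.6 and 91.2 from the nearest to the farthest bin.

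**Figure D1:**
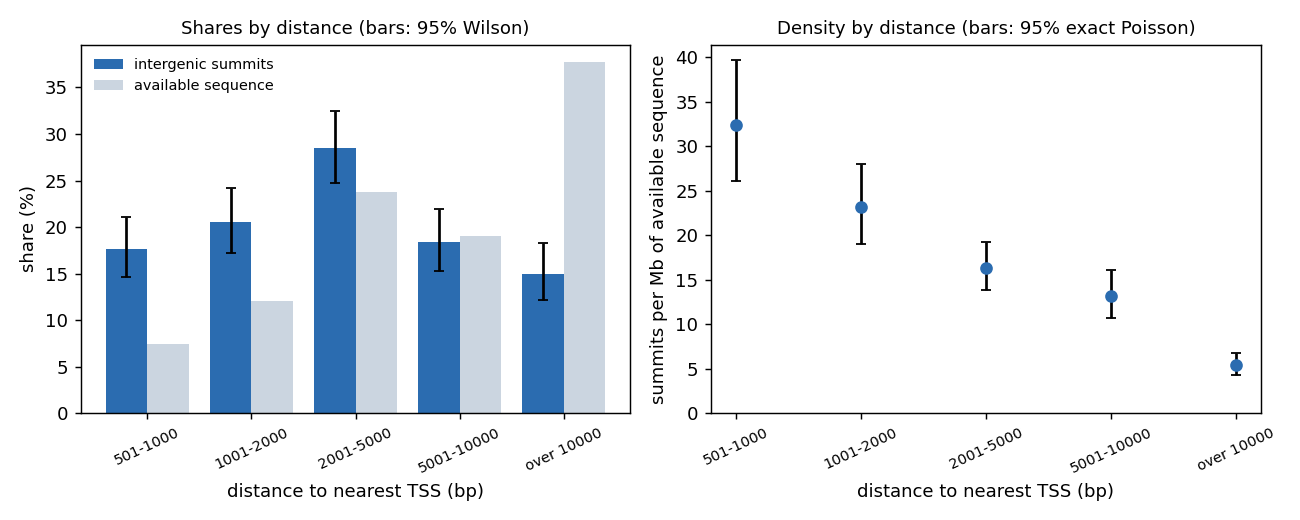
Left, the share of the 527 intergenic summits and of the available sequence in 5 bins of distance to the nearest TSS. Right, summits per Mb of available sequence in the same bins; density was 32.4 per Mb in the nearest bin and 5.43 in the farthest, and error bars are 95% intervals that cover counting error only.

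Signal was of like size on both sides of the 500 bp limit. Just inside it, 27 intergenic summits no more than 600 bp from a TSS had a median signal of 90.6. Just outside it, 36 summits outside genes and over 400 bp from a TSS had a median of 83.4. The nearest TSS was approached from upstream by 332 summits (63.0%) and from downstream by 195. The rule leaves out gene bodies, which lie downstream of their TSSs. The available sequence on each side was not measured, so these counts do not show a preference for either side. By the direction of the genes on either side, 148 summits (28.1%, 24.4 to 32.1) lay between divergent genes. Divergent gaps make up 20.4% of the available sequence in gaps between genes. The sequence shares by direction leave out chromosome ends, while the summit shares are of all 527. Tandem gaps held 255 summits (48.4%, on 52.6% of the sequence) and convergent gaps 120 (22.8%, on 27.0%), and 4 summits could not be placed in a gap because they lie at a chromosome end. Summits in divergent gaps had the lowest median signal, 80.4, and those in convergent gaps the highest, 90.4. Counted per summit, the gap between the flanking genes had a median of 12256 bp. A gap with several summits counts several times in this value.

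Intergenic summits were slightly weaker than promoter summits and about level with summits inside genes. Their signal ran from 2.52 to 1219, with quartiles of 65.4 and 130 and a median of 84.0. The median was 99.5 for promoter summits and 84.8 for summits inside genes. Against all other summits, with a median of 92.5, the ratio was 0.908. The same ratio was 0.968 in the list of replicate 1 alone and 0.890 in that of replicate 2 alone.

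Many of the intergenic summits were not called in each replicate on its own. A peak of both replicates' thresholded lists overlapped 231 of 527 (43.8%, 39.7 to 48.1), where the share over all 3397 summits was 48.6%. Promoter summits reached 55.4% (53.0 to 57.8) and summits inside genes 41.4% (38.6 to 44.2). A further 156 intergenic summits (29.6%) were in 1 replicate's list, and 140 (26.6%, 23.0 to 30.5) were in neither and came from the replicates used jointly. A ranked peak of replicate 1 and one of replicate 2 overlapped 520 intergenic summits, and over these sites the Spearman correlation of the 2 signals was 0.666, against 0.798 for promoter summits and 0.646 inside genes. These correlations run across sites and share both libraries. The replicate 1 value exceeded the other by over 2-fold at 16 sites and the replicate 2 value at 7.

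**Figure D2:**
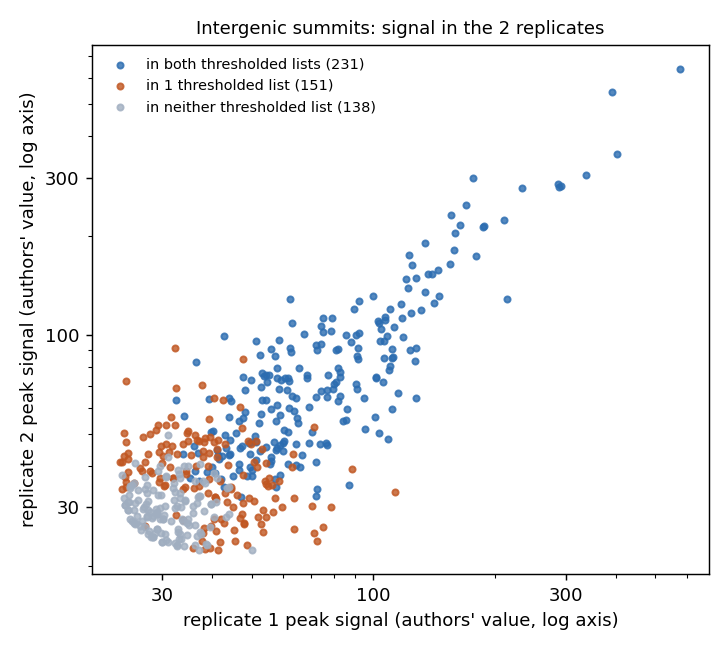
Peak signal of 520 intergenic summits in replicate 1 (horizontal, log axis) and replicate 2 (vertical, log axis), each point 1 summit, coloured by presence in the replicates' thresholded lists. Summits in both lists (231) spread to the highest values, while those in neither (138 of the plotted points) sit at the low end of both axes.

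The 15 strongest intergenic summits ran from 376 to 1219 in signal, and all 15 were in both replicates' lists. The strongest, at 1219 (577 in replicate 1 and 642 in replicate 2), lay on arm 2R, 1322 bp upstream of Haspin, which encodes a kinase of histone H3. The third, at 754 (402 and 354), lay on the same arm, 11909 bp downstream of the TSS of CG13323. On its other side the nearest TSS, 38224 bp away, was that of Su(z)2, a gene of the Polycomb group of silencers. At the site 568 bp upstream of sp3 the signal was 576 (292 and 284). A chromosome 4 site had 567 (289 and 281) and lay 2140 bp from snoRNA:CD-24, a guide RNA of ribosomal RNA modification, and 6464 bp from ci, the transcription factor of Hedgehog signalling. A site 1068 bp upstream of mRpS5, a protein of the mitochondrial ribosome, had 521 (234 and 280). In each of these the replicates were close in value.

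The remaining strong sites lay near a mixed set of genes. Upstream of CG41378 the signal was 470 (177 in replicate 1 and 300 in replicate 2), and upstream of DNAlig3, a DNA ligase gene, it was 431 (212 and 224). Upstream of the kinase gene Stlk it was 406 (188 and 213), and upstream of lncRNA:CR42794 it was 390 (187 and 212). The site upstream of Gprk1, a kinase of G protein-coupled receptors, had 381 (156 and 231). The other two lay downstream of the TSSs of lncRNA:CR43242, with 412 (169 and 248), and of FASN3, a fatty acid synthase gene, with 376 (160 and 204). At each of these 7 sites the replicate 2 value was the higher. Of the 15 strongest, 9 lay on the centromere side of an arm or on chromosome 4, 9 had another summit within 2000 bp, and none was on a transposable element record. CACTG stood within 100 bp of 6 of the 15.

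The 5 summits farthest from any TSS all lay on chromosome 3 and ranged in signal from 64.6 to 271. The farthest, near one end of the arm 3R sequence, was 426667 bp upstream of Myo81F, a myosin gene, with a signal of 64.6. The strongest of the 5, at 271 (121 and 148), was 157074 bp upstream of CG42598 on arm 3L, and it alone of the 5 was in both replicates' lists. The others were nearest to CR14578 at 198224 bp (signal 79.2), CG42402 at 103338 bp (65.9) and l(3)80Fj at 97457 bp (64.8). The central 25 bases of the CG42598 and CG42402 sites each occurred 21 times in the genome. Sequencing reads there may not be assignable to 1 place, and the labels do not say how such reads were handled.

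The arms held intergenic summits at unequal density. Over all 7 chromosomes it was 13.7 per Mb of available sequence. Arm 3L had the most, 165 summits or 18.4 per Mb (15.7 to 21.5), followed by 2L with 114 (17.0), 2R with 99 (13.3) and 3R with 92 (interval 9.69 to 14.7). The X had 48, or 9.15 per Mb (6.75 to 12.1), below the interval of 3L and that of 2L, 14.0 to 20.4. Chromosome 4 had 8 summits on little sequence, 32.6 per Mb with a wide interval of 14.1 to 64.3. The Y had 1. Neighbours in this order from 2L to 3R had overlapping intervals. The sex of the embryos was not recorded, so the copy number of the X and Y in the pool is unknown.

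**Figure D3:**
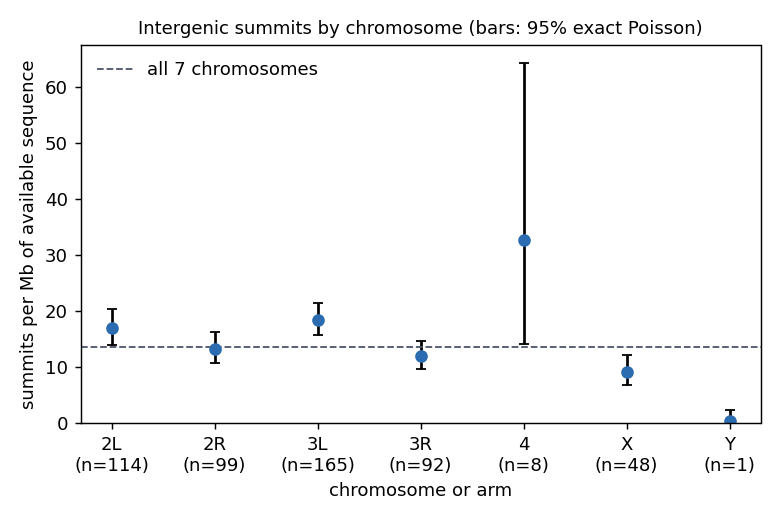
Intergenic summits per Mb of available sequence on each chromosome or arm (points) with 95% exact Poisson intervals; the dashed line marks 13.7 per Mb, the value over all 7. Arm 3L (18.4) and 2L (17.0) lie above the line and the X (9.15) and Y below it.

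Near the centromeres the sites were sparser but stronger. The 5 Mb next to the centromere of each large arm, taken with chromosome 4, held 115 summits (21.8%, 18.5 to 25.5) on 30.8% of the available sequence, or 9.67 per Mb (7.99 to 11.6). The rest of the genome had 15.4 per Mb (14.0 to 17.0). The median signal was 98.2 on the centromere side and 82.9 elsewhere, and the centromere-side median was the higher in each of the 5 arms, from 86.6 against 82.4 on 3L to 140 against 93.1 on 2R. Among all other summits 12.6% (11.4 to 13.9) lay on the centromere side or on chromosome 4. Much of this sequence is repetitive, and its part in the lower density was not tested.

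Some intergenic summits came in groups. Another intergenic summit lay within 10 kb of 233 of the 527 (44.2%, 40.0 to 48.5). Among peaks of above-median signal alone the share was 24.4%, 58 of 238. Linking neighbours at that distance gave 294 summits on their own, 55 pairs and 31 runs of 3 or more, which held 123 summits. Summits in runs of 3 or more had a median signal of 86.5, those alone 87.1 and those in pairs 78.0. Counting summits of any class, 61.9% had another within 10 kb, and the value was also 61.9% for all other summits. Single gaps between genes held 2 or more summits in 94 cases.

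The largest run had 11 summits over 45.4 kb of arm 3L, between hng3 and lncRNA:CR44537. It spans a pair of isoleucine tRNA genes, tRNA:Ile-TAT-1-1 and tRNA:Ile-TAT-1-2, and CG13898. Its signals ranged from 50.8 to 220 with a median of 73.2. Just 3 of the 11 were in both replicates' lists, and these were also the 3 strongest, at 219 (127 and 91.4), 220 (119 and 98.4) and 202 (106 and 96.2). The other 8 were at or below 89.6.

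A run of 7 on arm 3L lay between Ids, a lysosomal sulfatase gene, and sty, the Sprouty antagonist of receptor tyrosine kinase signalling. Its 4 summits nearest lncRNA:CR45737 had signals of 228, 285, 142 and 153 within 1655 bp, and all 4 were in both replicates' lists. On 2L, 6 summits lay over 16.5 kb between lncRNA:CR44603 and chinmo, a BTB zinc-finger gene of neuronal timing, with signals from 49.3 to 259. Another 6 on 2L lay upstream of Slmap, with signals from 58.0 to 187, of which 5 were in both lists. A further 6 lay within 6.97 kb upstream of CG7560 on 3L, with signals from 79.6 to 266 and 4 in both lists.

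**Figure D4:**
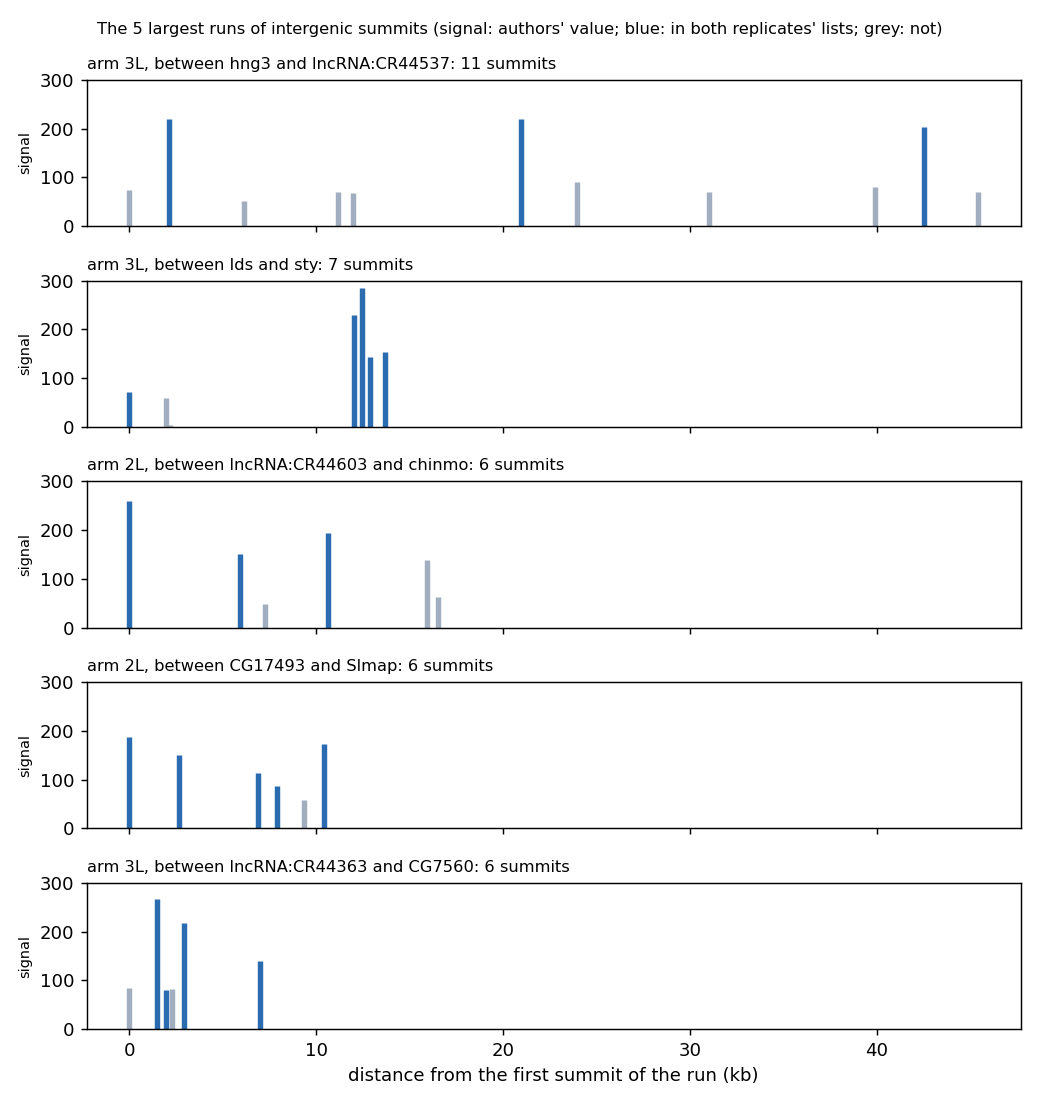
The 5 largest runs of intergenic summits, with distance from the first summit of the run in kb (horizontal) and the authors' pooled peak signal (bar height). Blue bars are summits in both replicates' lists and grey bars the others; in the run of 11 the 3 blue bars reach 219, 220 and 202 and the grey bars 89.6 or less.

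Some genes were the nearest to several intergenic summits. CG7560, CG43245 and Slmap each had 6, and CG41128 had 5, with signals from 56.7 to 936. Those with 4 were lncRNA:CR45737, tRNA:Ile-TAT-1-2, CG13898, lncRNA:CR45695, RpL38 and ems. Those with 3 were CG13321, CG40472, Doc2, l(3)80Fj, stck, scyl, CG40228, CG2772, Cyt-c1L, Ids and ths. Doc2 encodes a T-box factor of dorsal ectoderm and heart, and its 3 summits had signals from 64.8 to 174 at 4509 to 9033 bp. The gene ths encodes a fibroblast growth factor. Its 3 summits had signals from 11.4 to 69.8, and none was in either replicate's list. At stck, Ids and ths the weakest of the 3 summits (3.73, 3.66 and 11.4) had the same replicate values as a summit close to it. These genes may therefore have fewer separate sites than summits.

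For a minority of intergenic summits the nearest gene had a promoter summit of its own. This held for 112 of 527 intergenic summits (21.3%, 18.0 to 24.9). Of all 18277 annotated genes 11.9% had a promoter summit, and 12.4% of the available sequence was nearest to such a gene. The 112 had a median signal of 97.8 and the other 415 a median of 83.3. The nearest TSS belonged to a protein-coding gene for 373 summits (70.8%, on 64.8% of the sequence), to a non-coding RNA gene for 128 (24.3%, on 26.6%) and to a pseudogene for 11 (2.09%, 1.17 to 3.70, on 7.08%).

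Some segmentation genes had an intergenic summit nearest to them. Of 26 segmentation genes 6 did (23.1%, 11.0 to 42.1), where the figure over all 13968 protein-coding genes was 2.04%. They were the nearest to 13 summits, 2.47% of the total, on 0.775% of the available sequence. Of the 13, 4 were nearest to ems. The strongest of these stood 4308 bp upstream of slp2 (348). At ptc, the receptor of Hedgehog, a site 5281 bp upstream had 202 (112 and 84.9). Another stood 13065 bp downstream of the TSS of ems, a homeobox gene of head development, with 119 (47.7 and 74.5). The zinc-finger gene odd had sites at 113 and 68.2, oc, a head homeobox gene, at 89.6 and 70.1, and slp1 at 86.5. None of the 13 was near a gene with a promoter summit of its own.

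Several other lists gave small counts or none, some of them on still less sequence. No intergenic summit was nearest to any of 8 Hox genes (0%, 0 to 32.4), 17 dorsoventral genes, 17 neural fate genes, 17 ecdysone genes, 15 insulator and architectural protein genes or 260 microRNA genes. These lists have little available sequence, at most 0.342% of the total each, so a count of 0 says little for any of them. Among 19 Polycomb and trithorax group genes 2 had a site (10.53%, 2.94 to 31.4), ph-d (signal 124) and pho (52.2), at 83.0 summits per Mb of available sequence. Among 19 muscle and heart genes 2 did, how (78.6) and bin (70.4), at 41.4 per Mb. Each of these densities rests on 2 summits, on 0.0624% and 0.125% of the available sequence. No interval was computed for them, and they say as little as the counts of 0. All protein-coding genes had 14.9 per Mb. The segmentation genes had 43.4 per Mb. Of 17 neuron function genes Snap25, a synaptic vesicle fusion protein, was the 1 with a site (111). Cytoplasmic ribosomal protein genes gave 3 of 86, RpL38 (strongest site 155), RpL10 (131) and RpL15 (127), each with a promoter summit of its own, with 7 summits at 47.5 per Mb.

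The remaining gene families had a site at 0.665% to 3.16% of their members, against 2.04% of all protein-coding genes. Of 290 tRNA genes 8 were nearest to 13 summits, 2.47% of the total on 0.852% of the available sequence (39.5 per Mb), with 6 of these in the run of 11 on 3L. The strongest were at tRNA:Ile-TAT-1-2 (220), tRNA:Ile-TAT-1-1 (219) and tRNA:Phe-GAA-1-7 (139). Chemoreceptor genes gave 3 of 179, Gr89a (155), Ir67b (83.8) and Gr93d (68.8). Cuticle protein genes of the Cpr family gave 2 of 70, Cpr76Ba (213) and Cpr65Eb (78.4). Of 301 snoRNA and snRNA genes 2 were the nearest, snoRNA:CD-24 (567) and snoRNA:Psi28S-3436b (84.1). Non-coding RNA genes in all gave 104 of 3289 (3.16%, 2.62 to 3.82).

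The 5-base sequence CACTG, or CAGTG on the other strand, was the most common of the motifs searched that exceeded their frequency in other intergenic sequence. It stood within 100 bp of 278 of 527 summits (52.8%, 48.5 to 57.0). In 185139 windows of the same length, tiled over the available sequence clear of peaks, the share was 27.4%. It was 48.2% at promoter summits and 56.3% at summits inside genes. The windows differed in base composition, with a median GC content of 36.3% at intergenic summits and 41.3% in the tiled windows. The share hardly varied with distance to the nearest TSS, from 49.4% beyond 10000 bp to 57.7% between 5000 and 10000 bp. It was 55.0% of the 231 summits in both replicates' lists and 51.4% of the 140 in neither. Signal differed little with it, at a median of 84.2 with CACTG and 83.6 without.

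CACTG was densest beside the summit, less dense on it and least dense farther away. Within 24 bp of the summit it occurred 252 times per 100 kb, between 50 and 109 bp away 444 times, and between 300 and 499 bp away 161 times. Summits inside genes had 229, 516 and 176 in the same zones and promoter summits 315, 352 and 210. At intergenic summits the copies also had a direction. Between 25 and 125 bp away, 252 copies read towards the summit and 169 away from it, which is 59.9% towards (55.1 to 64.4). Between 300 and 499 bp the share was 46.4% (41.2 to 51.8). In the nearer band it was 46.0% (43.1 to 48.9) at promoter summits and 54.9% (51.9 to 57.8) inside genes. Between 300 and 499 bp those 2 classes had 56.7% (54.1 to 59.3) and 47.2% (43.9 to 50.5). A skew in direction was thus also present away from promoter summits. A copy reading towards the summit stood on each side of 48 intergenic summits (9.11%, 6.94 to 11.9), against 3.01% (2.29 to 3.95) of promoter summits and 9.17% (7.67 to 10.9) of those inside genes. With copies reading away on each side, the shares were 4.93% (3.39 to 7.13), 3.92% (3.09 to 4.96) and 6.85% (5.56 to 8.42) in the same order.

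**Figure D5:**
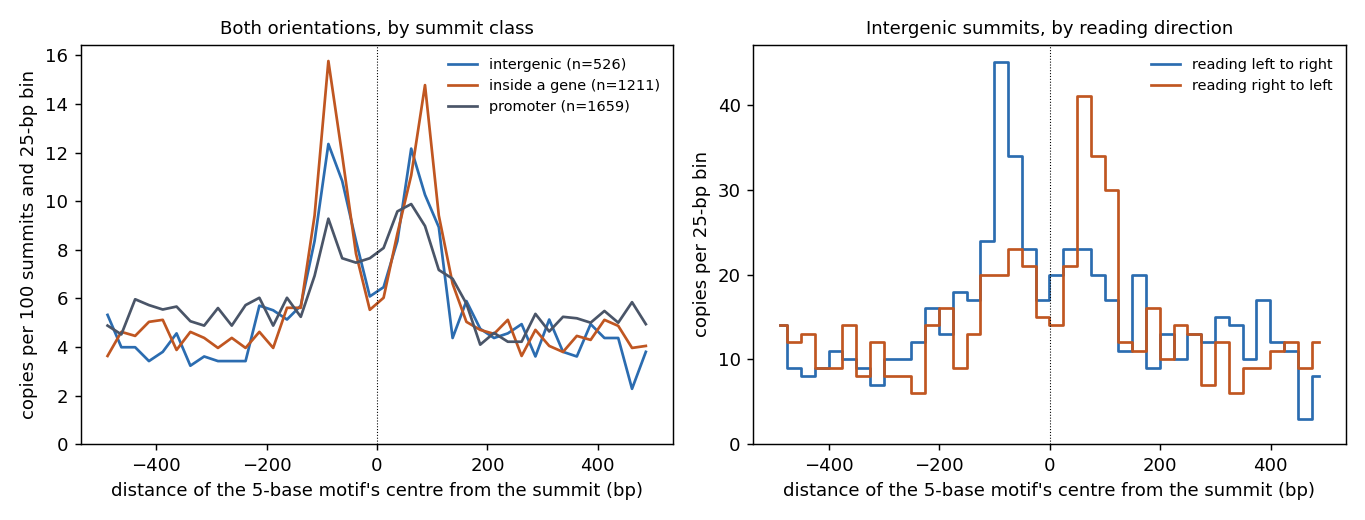
Left, copies of the 5-base sequence per 100 summits in bins of 25 bp, by distance from the summit in bp, for the 3 classes of summit; intergenic and genic summits show a peak on each side and a dip at the centre. Right, copies at intergenic summits split by reading direction, where copies left of the summit more often read rightwards and copies right of it leftwards (252 towards and 169 away at 25 to 125 bp).

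A search of all 8-base sequences present in at least 15 intergenic windows put CACTGAGA first by its ratio to the tiled windows. The search was made on these windows and its result is a description. CACTGAGA, or TCTCAGTG on the other strand, was in 40 windows (7.59%), against 0.625% of tiled windows and 6.77% of windows inside genes. Of the 20 leading 8-base sequences 16 held CACTG. In 36 of the 40 the summit lay on the GAGA side of the sequence, at a median distance of 69 bp. The 40 had signals from 51.1 to 348, 16 were in both replicates' lists and none was on a transposable element record. Stretches of 30 bases at 5 sites, taken in order of signal among those that can be printed, show the surroundings. Each is read in the direction of CACTGAGA, which is in capitals.
slp2, chr2L:3832572-3832601, minus strand: agcagccagtaCACTGAGAaaaatattaca
tRNA:Ile-TAT-1-1, chr3L:762581-762610, minus strand: ataagtcaaggCACTGAGAgaaataatgca
lncRNA:CR45303, chr2L:14502693-14502722, plus strand: tgacactcttaCACTGAGAaaatagccgtt
lncRNA:CR45937, chr3L:18236092-18236121, minus strand: cgctgctaatgCACTGAGAgaagtcacctc
Gr89a, chr3R:16497591-16497620, plus strand: actgttatgtaCACTGAGAaatataataaa

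The summit lay 55 bp away at slp2, 73 bp at tRNA:Ile-TAT-1-1, 95 bp at lncRNA:CR45303, 94 bp at lncRNA:CR45937 and 17 bp at Gr89a. Gr89a is among the 4 sites where the summit lay on the other side, before the CACTG end. At the rest of the printed sites it lay on the GAGA side. Their pooled signals were 348, 219, 186, 167 and 155. All but the lncRNA:CR45303 site were in both replicates' lists, and that site had 99.6 in replicate 1 and no overlapping ranked peak in replicate 2. The slp2 site is the one whose whole window is printed above with the M1BP motif in capitals.

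Motifs of known chromatin proteins were present at a minority of sites. The CTCF core AGNNGGCGC, or GCGCCNNCT, was in 24 windows (4.55%, 3.08 to 6.69), against 1.24% of tiled windows, 2.35% of promoter windows and 4.05% of windows inside genes. The 24 had a median signal of 105. The DRE, TATCGATA, was in 9 windows (1.71%, 0.901 to 3.21), against 0.452% of tiled windows and 7.59% of promoter windows, with a median signal of 178. The shorter BEAF-32 core CGATA, or TATCG, which is part of the DRE, was in 25.2% and in 20.2% of tiled windows. M1BP's GGTCACAC, or GTGTGACC, was in 4 windows (0.759%), against 0.280% tiled and 5.06% at promoters. The GAGA sequence GAGAGAG, or CTCTCTC, was in 2.47% and in 2.23% of tiled windows. The Zelda sequence CAGGTAG, or CTACCTG, a mark of early embryonic enhancers, was in 1.33% (0.645 to 2.72) and in 0.906% of tiled windows. A missing match says only that these letters were not in the window.

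Sites in repeats had a different make-up. A transposable element record covered 23 intergenic summits (4.36%, 2.93 to 6.46), although such records cover 10.6% of the available sequence. Promoter summits had 0.301% and summits inside genes 0.991%. The families were 1360 with 5, Cr1a with 5, INE-1 with 4, and 9 others with 1 each. The 23 had a median signal of 100, and 11 of them lay on the centromere side or on chromosome 4. CACTG was within 100 bp of 3 of the 23 (13.0%, 4.54 to 32.1). It was at 34.8% (26.7 to 43.9) of the 115 summits on the centromere side or chromosome 4 and at 57.8% (52.9 to 62.4) of the 412 elsewhere.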

How the data were processed

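Per the deposited inventories, alignments of a replicate, with a control, gave that replicate's peak lists, and alignments of both gave the lists of the whole series. The sources used here do not name the aligner or peak caller. Peak signal is the authors' own value per peak. The ranked lists also give a score, the −log10 of the global irreproducible discovery rate (IDR), as the authors deposited it, and every intergenic peak had an IDR of at most 0.00994.

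Summits of the series-level conservative list were placed against genes of Ensembl release 115 on dm6. No intergenic summit lay inside a RefSeq gene record. A summit took from each replicate the highest signal among overlapping ranked peaks, so close summits can share a value. Overlap meant at least 1 bp. Intervals (Wilson or exact Poisson, 95%) cover counting error only. Tiled windows covered the available sequence that was clear of peaks. Sequences matched both strands. The tools were numpy 2.4.6, scipy 1.17.1 and pandas 2.3.3 under Python 3.11.15; plots used matplotlib 3.10.9. The functions were tested on simulated data.

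The sites, the 16 gene lists and the 16 motifs were chosen with earlier results of these data known, and some list symbols were renamed to match the annotation; 1 ecdysone symbol was not matched. Named genes are those with the nearest TSS on either side of the 15 strongest and 5 farthest summits or of the 5 largest runs, those nearest to at least 3 summits, and up to 3 per list by signal; of these the text names a part. A few further genes and values were named after they were seen. Alternatives were the other series-level list, each replicate alone, peaks of above-median signal, other TSS distances, protein-coding genes alone, the 5 large chromosomes alone, and other linkage, window, promoter and overlap settings.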

Additional observations from a re-analysis of the deposited data

How the results depend on the processing

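Of 90 recomputed values, 61 stayed within a band set around the value reported and 29 moved. For shares the band was the counting interval. For the median distance and the signal ratio it was the spread of the values from each replicate alone. Those values were also scored against that band. For the number of summits, 527, the band was a wide set range of 351.3 to 790.5, neither an interval nor a spread. The 354 summits without replicate 1 and the 369 without replicate 2 therefore counted as having stayed. No test was made, so no call could be lost. No paired analysis was possible because there is 1 group. Leaving out a replicate, that is taking the thresholded list of the other alone, gave a share of all summits of 14.2 to 15.7%, a median distance of 2680 to 2966 bp, a signal ratio of 0.890 to 0.968, 64.5 to 66.1% overlapping both replicates (each list overlaps itself) and 36.3 to 36.7% within 10 kb of another. Peaks of above-median signal gave 238 summits, 14.0% of the total, a median distance of 2831.5 bp, a signal ratio of 0.967, 85.3% in both replicates, 24.4% within 10 kb and 25.6% on the centromere side or chromosome 4. A TSS distance of 200 bp gave 19.6%, a median of 1918.5 bp and 37.7% with a promoter summit at the nearest gene, where each added summit counts as its own gene's promoter summit. A distance of 1000 bp gave 12.8% and 4020.5 bp. Protein-coding genes alone gave 19.02%, 4388.5 bp and 26.5% with a promoter summit at the nearest gene. The other series-level list gave 38.2% in both replicates, and reciprocal overlap of 50% gave 37.2%. Linkage at 5 and 20 kb gave 33.2% and 55.6%. A promoter distance of 1000 bp gave 38.3%, which likewise counts the 93 summits nearest to a TSS as their own gene's. CACTG within 50 bp gave 24.9% and a centromere side of 2 Mb 8.92%. The share on transposable element records did not move under any of its 8 alternatives. Removing overlapping or repeated sites, and joining overlapping ones, both chosen after seeing the data, moved none of the values recomputed. Without read counts the depth behind each site is unknown, and 2 replicates give little hold on the spread between embryo collections.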

Other observations

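The weakest intergenic summits lay beside stronger ones. All 8 summits with a signal under 20 (2.52 to 11.4) lay within 500 bp of another summit, and each had the same 2 replicate values as a neighbouring intergenic summit, from 24.3 to 39.7 in replicate 1 and from 23.6 to 36.9 in replicate 2. The next weakest summit had 24.4. In all, 18 intergenic peaks overlapped another conservative peak. Another 36 summits of other classes also had a signal under 20.

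The central 25 bases occurred more than once in the genome at 26 intergenic summits (4.93%, 3.39 to 7.13), against 0.723% of promoter summits and 1.32% of summits inside genes. The highest number of copies was 541, at a site 1272 bp from Atf6 on an element of the 1360 family, with a signal of 48.8. A site 6013 bp from lt on a roo element had 132 copies and a signal of 324 (155 and 164). Of the 26, 20 lay outside transposable element records.

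Most intergenic peaks, 459 of 527 (87.1%), had the same width of 280 bp in the authors' list.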
